A study of Mus musculus with 4 samples.

Results

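The interferon-stimulated genes described here were 46 genes listed by symbol as induced by type I or type II interferon, and all 46 were found among the 41079 genes of the count table. The list goes by symbol and applies no cutoff on expression, but it was drawn up with earlier results of these data known. By their usual class, 31 genes were taken as type I members and 15 as type II members. The classes are not exclusive, since Irf9, Stat2, Parp14, Ifi35, Ifi204, Ifi205, Bst2, Zbp1 and Cxcl10 are commonly induced by both types.

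Type I interferons act through a receptor made of IFNAR1 and IFNAR2, and the kinases bound to it activate a complex that holds STAT2 and IRF9 and binds the interferon-stimulated response element (ISRE) of target promoters. Type II interferon, or IFN-γ, comes mainly from T cells and NK cells, acts through IFNGR1 and IFNGR2, and signals to promoters that carry the gamma-activated sequence (GAS). Type I targets are best known for blocking viral replication, whereas type II targets include the chemokines that draw CXCR3-bearing T cells into the lung and the large GTPases that attack vacuoles holding microbes.

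The libraries were made from whole lungs of mice with and without Rab44, a large Rab GTPase, some of which had ovalbumin (OVA)-induced airway inflammation. There were 4 libraries, 1 for each genotype under each condition, and 4 values in a row stand for WT and then Rab44-KO under normal conditions, followed by WT and then Rab44-KO after OVA induction. WT and Rab44-KO mice were female C57BL/6 littermates of 8 to 14 weeks, and the knockout was made by CRISPR/Cas9 editing and not limited to a cell type by any label. OVA-induced mice had received intraperitoneal OVA with alum on days 0, 7 and 14 and intranasal OVA (100 μg in 50 μL) on days 17 to 20, and lungs were taken on day 21, whereas normal mice are labelled as untreated although the protocol text also names a PBS challenge.

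Each library held 18112901 to 19910236 counted read pairs over 24316 to 25003 detected genes. Rab44 had 251 and 810 counts in the normal and OVA-induced WT libraries against 1 and 0 counts in the Rab44-KO libraries, which fits the labels. The lung markers Sftpc (181126 to 361981 counts) and Scgb1a1 (320451 to 440878 counts) were high in all 4 libraries. With 1 library per group and no stated number of mice per library, the spread between mice is unknown. No p-value is therefore given, and every interval is a 95% interval of counting error only. Because whole lung was sequenced, fewer cells of a type and less RNA per cell cannot be told apart in any difference reported here.

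The promoters of the members carried the elements named above more often than promoters at large. RefSeq promoter windows (GRCm38.p6, 250 bases before to 50 after the start) were given for 34 of the 46 members. The ISRE core, searched as GAAA, any 2 bases and GAAA, or as TTTC, any 2 bases and TTTC for the other strand, was present in 22 of the 34 windows (64.7%), against 3.99% of the windows of 27025 genes. The GAS core, TTCNNNGAA on either strand, was present in 11 of 34 (32.4%) against 9.55% of all genes. Among type II members, 10 of 13 windows held an ISRE, 7 held a GAS and 6 held both, whereas among type I members 12 of 21 held an ISRE, 4 held a GAS and 2 held both.

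The promoters of 4 immunity-related GTPase genes are shown first because they share 1 arrangement, a GAS followed after 2 bases by an ISRE. All 4 genes lay above WT in normal Rab44-KO lungs and below WT in OVA-induced ones (Irgm2 turned on the TPM scale, as described with its values). This pattern was not particular to the arrangement, since 14 of 15 type II members were higher in normal and 14 of 15 lower in OVA-induced Rab44-KO lungs. Ifi47, with neither element in its window, showed it as well. Gbp7, with both elements, was higher under both conditions. Capitals mark the 2 motifs, each sequence is read on the strand of its gene, and the windows lie at chr11:58199496-58199546 (+), chr11:58214887-58214937 (+), chr11:48992299-48992349 (-) and chr11:49064258-49064308 (-).
Igtp: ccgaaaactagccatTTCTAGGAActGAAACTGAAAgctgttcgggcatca
Irgm2: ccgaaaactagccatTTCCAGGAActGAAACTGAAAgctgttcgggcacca
Tgtp1: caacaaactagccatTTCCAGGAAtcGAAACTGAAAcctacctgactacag
Tgtp2: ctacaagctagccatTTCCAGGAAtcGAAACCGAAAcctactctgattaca

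Members with 1 kind of element in the window, or with several copies of it, are shown for contrast. Irf1 is shown for a GAS without an ISRE, Cxcl10 and Gbp2 for an ISRE without a GAS, and Ifit1, Isg15 and Oas3 as type I members with 1 or more ISRE copies, which overlap in Isg15. The stretches lie at chr11:53769909-53769947 (+), chr5:92349078-92349117 (-), chr3:142620589-142620628 (+), chr19:34640770-34640828 (+), chr4:156200860-156200911 (-) and chr5:120777710-120777749 (-).
Irf1: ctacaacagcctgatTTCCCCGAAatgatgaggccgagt
Cxcl10: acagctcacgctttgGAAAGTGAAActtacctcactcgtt
Gbp2: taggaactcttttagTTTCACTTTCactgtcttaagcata
Ifit1: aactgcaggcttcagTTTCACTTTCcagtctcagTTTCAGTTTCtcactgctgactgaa
Isg15: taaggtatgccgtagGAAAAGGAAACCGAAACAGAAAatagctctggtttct
Oas3: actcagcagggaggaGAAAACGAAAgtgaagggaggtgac
A match is a string in a window and not a measured binding site, and binding was not assayed.

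All 46 members were detected in every library, and all 46 reached the minimum of 10 counts in the higher library of every comparison. Per length, the deposited TPM averaged over the libraries ran from 2.33 for Mx2 to 292 for Bst2 among type I members (median 15.9) and from 1.33 for Cxcl9 to 78.1 for Irf1 among type II members (median 25.6). Bst2, which encodes tetherin, a membrane protein that holds budding virions on the cell, was followed among type I members by Ifi35 (96.0 TPM) and Ifi27l2a (90.8 TPM). Ifi35 had 1141, 925, 1248 and 903 counts, and Ifi27l2a had 744, 644, 673 and 516 counts. Irf1, a transcription factor of the IFN-γ response, was followed among type II members by the guanylate-binding protein gene Gbp2 (73.8 TPM) and the immunity-related GTPase gene Ifi47 (47.8 TPM). The 46 members together took 0.149%, 0.159%, 0.139% and 0.119% of the counts of the libraries.

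**Figure D1:**
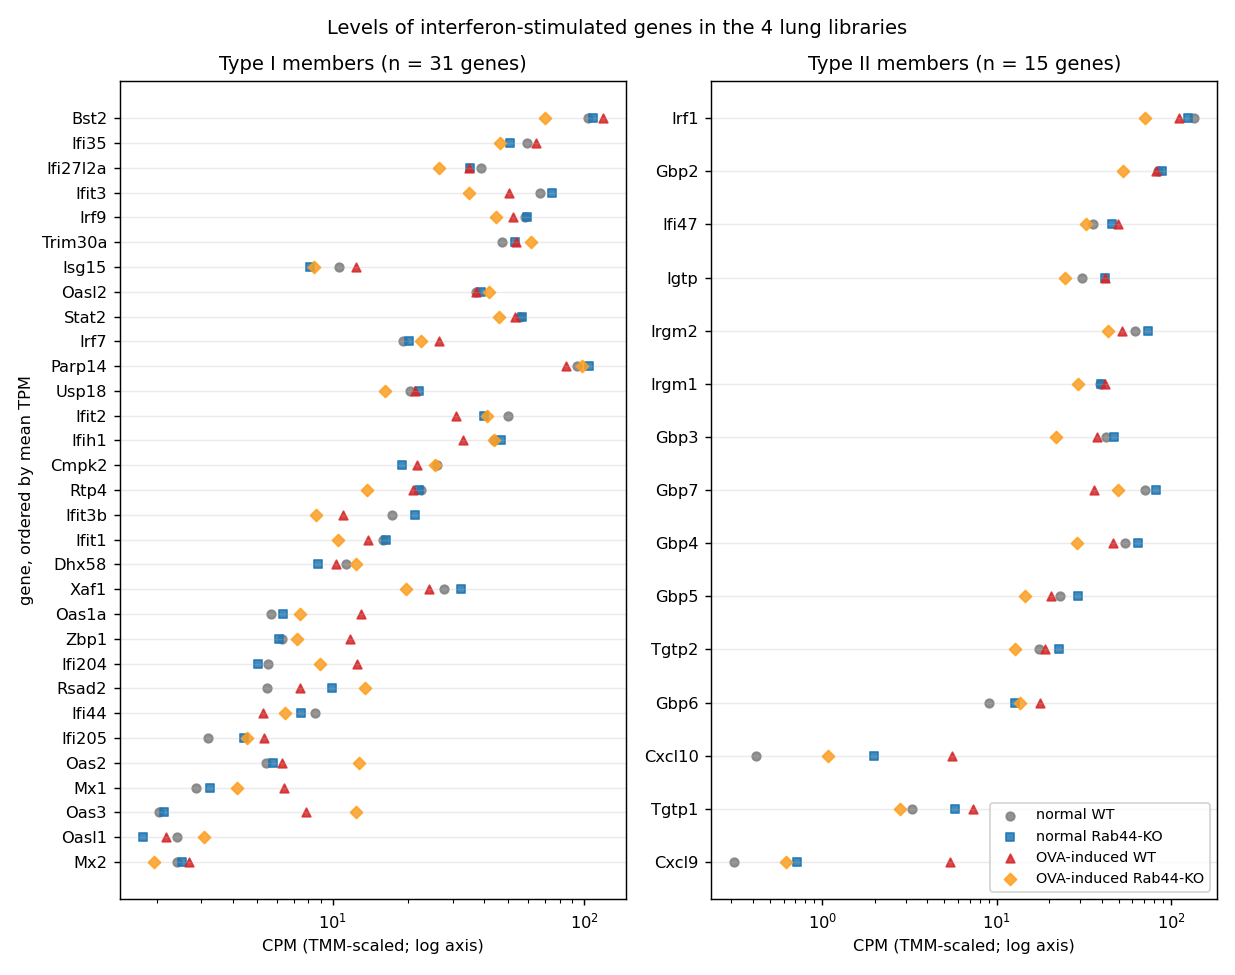
TMM-scaled CPM (log axis) of the 31 type I members and the 15 type II members in the 4 libraries, ordered by mean TPM; each point is 1 library. The OVA-induced Rab44-KO library has the lowest CPM for 11 of 15 type II members and for 12 of 31 type I members, against 32.0% of 18352 genes.

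Under normal conditions, type II members were slightly higher in the Rab44-KO library, and type I members were divided. The log2 ratio of Rab44-KO over WT (log2FC, from CPM, read counts scaled to library size by TMM) was above 0 for 14 of 15 type II members, with a median of 0.34 and a range from -0.11 to 2.23, and for 20 of 31 type I members, with a median of 0.07 and a range from -0.47 to 0.87. Over all 18718 genes tested, 50.8% were higher. The counting interval lay above 0 for 11 of 15 type II members and 6 of 31 type I members, against 14.6% of all genes, and below 0 for 1 and 5 of them, against 14.8%. Only 2 members were over 2-fold higher, Cxcl10 and Cxcl9, against 2.77% of all genes, and no member was over 2-fold lower. Cxcl9 rested on 6 and 13 counts, and its interval of -0.31 to 2.87 included 0. Of all genes, 4.77% were over 2-fold different in either direction. Past 1.5-fold, 1 type I and 3 type II members were higher and none was lower, against 11.4% of all genes in either direction.

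Every guanylate-binding protein gene (6 of 6) and every immunity-related GTPase gene (6 of 6) was higher in normal Rab44-KO lungs, and the interval excluded 0 for 5 of each. Tgtp1, an immunity-related GTPase gene at chr11:48985327-48994172, had 63 and 105 counts in WT and Rab44-KO (log2FC 0.81, interval 0.35 to 1.28). Gbp6 had 173 and 233 counts (log2FC 0.50, interval 0.21 to 0.80), and Igtp had 594 and 759 counts (log2FC 0.43, interval 0.27 to 0.58). Irf1 was the exception among type II members, with 2612 and 2294 counts (log2FC -0.11, interval -0.20 to -0.03). Tgtp1 and Tgtp2 are near-identical copies, and 64.9% and 68.4% of their 150-base windows occur in another gene, so the division of reads between them is uncertain. Summed, the pair had 399 and 520 counts (log2FC 0.46, interval 0.26 to 0.65).

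Among type I members, Rsad2, whose product viperin makes a chain-terminating nucleotide, had the largest difference under normal conditions, with 105 and 182 counts (log2FC 0.87, interval 0.51 to 1.23). Its head-to-head neighbour Cmpk2, a mitochondrial nucleotide kinase gene, went the other way, with 500 and 344 counts (log2FC -0.47, interval -0.67 to -0.27). Isg15, a ubiquitin-like modifier, had 203 and 148 counts (log2FC -0.38, interval -0.70 to -0.07). Across the type I families the log2FC of most other genes had intervals that included 0, in 20 of the 31 members.

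Under OVA-induced conditions, the direction of the type II members was the opposite. The log2FC of Rab44-KO over WT was below 0 for 14 of 15 type II members, with a median of -0.64 and a range from -3.13 to 0.46, and the counting interval lay below 0 for the same 14. Of all 19259 genes tested, 51.9% were lower and 33.8% had an interval below 0, with a median of -0.02. When the minimum was raised to 100 counts, which all 15 type II members reached, these shares were 54.9% and 41.2%. Type I members were divided, with 19 lower and 12 higher, 17 intervals below and 9 above 0 (29.7% of all genes lay above), a median of -0.23 and a range from -0.80 to 1.01, and on the TPM scale 14 were lower and 17 higher. TPM moves the median over all genes to 0.29 in this comparison. It rescales the same counts by 1 length per gene, so it shifts all log2FC almost alike. On both scales 19 of 31 type I and 14 of 15 type II members lay below the median over all genes. This agreement follows from the shared counts and is not separate evidence. The type II median was 0.41 below the type I median on the log2 scale. Past 2-fold, 3 type II members were lower and 1 type I member was higher, against 7.34% lower and 8.40% higher of all genes. Of these 3, Tgtp1 shares reads with Tgtp2, and the summed pair was not past 2-fold (log2FC -0.75). Past 1.5-fold, 9 of 15 type II members were lower, and 3 type I members were higher and 5 lower, against 35.8% of all genes in either direction.

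**Figure D2:**
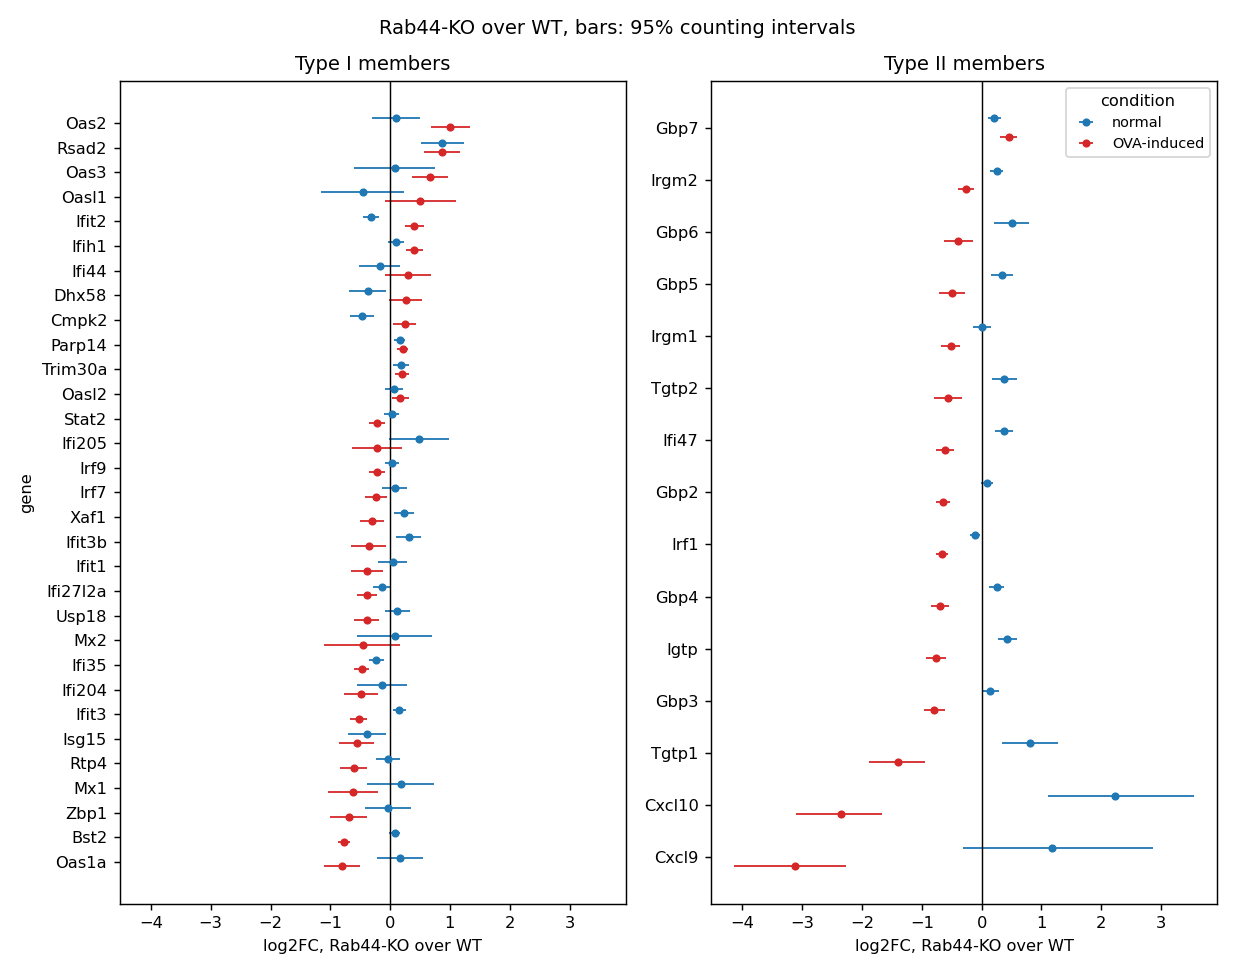
log2FC of Rab44-KO over WT for each type I and type II member under normal (blue) and OVA-induced (red) conditions, with 95% counting intervals as bars, ordered by the OVA-induced value. Under OVA-induced conditions 14 of 15 type II members lie below 0 (13 of 15 on the TPM scale), while 12 of 31 type I members lie above it.

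The largest differences were those of Cxcl9 and Cxcl10, the chemokines that IFN-γ induces as ligands of CXCR3. Cxcl9 (chr5:92321347-92328079) had 6 and 13 counts in normal lungs of WT and Rab44-KO mice, and 105 and 12 counts in their OVA-induced lungs. Cxcl10 (chr5:92346638-92348889) had 8, 36, 107 and 21 counts. Both were high only in the OVA-induced WT library, and Cxcl10 was also above its normal WT level in normal Rab44-KO lungs (log2FC 2.23, interval 1.11 to 3.56). In OVA-induced lungs the Rab44-KO level was 8.73-fold lower for Cxcl9 (log2FC -3.13, interval -4.14 to -2.27) and 5.10-fold lower for Cxcl10 (log2FC -2.35, interval -3.11 to -1.67). The normal levels rest on few counts, so the fold differences between conditions are imprecise.

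The immunity-related GTPases, some of which coat and disrupt vacuoles holding intracellular microbes, were lower in all 6 cases, with intervals below 0 for all 6. Their median was -0.58 (-0.25 on the TPM scale and -0.35 with the length trend removed). Irgm2 turned to 0.06 on the TPM scale, which is below the median over all genes on that scale. Tgtp1 had 3.28, 5.75, 7.33 and 2.77 CPM (log2FC in OVA-induced lungs -1.40, interval -1.88 to -0.94). Igtp had 30.9, 41.6, 41.9 and 24.8 CPM (log2FC -0.76, interval -0.92 to -0.59). Both genes were lowest in the OVA-induced Rab44-KO library, and both were higher in normal Rab44-KO and in OVA-induced WT lungs than in normal WT lungs. Ifi47 followed the same order, with 35.5, 45.9, 49.4 and 32.4 CPM (log2FC -0.61, interval -0.76 to -0.46). Summed over both copies, Tgtp1 and Tgtp2 had 20.8, 28.5, 26.1 and 15.5 CPM (log2FC -0.75, interval -0.96 to -0.54). Gm12185, which is no member but shares windows with Tgtp1, had 102 and 81 counts in OVA-induced WT and Rab44-KO lungs, and the 3 genes together had 608 and 384 (log2FC -0.67, interval -0.86 to -0.49). Igtp (chr11:58199556-58207591) and Irgm2 (chr11:58199618-58222782) overlap on the same strand in GENCODE M21, and reads in the overlap cannot be assigned with certainty.

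The guanylate-binding proteins, which assemble on microbial membranes and promote inflammasome activation, were lower in 5 of 6 cases, with a median of -0.57 (-0.24 on the TPM scale). Gbp3 had 42.3, 46.8, 37.8 and 21.9 CPM (log2FC in OVA-induced lungs -0.79, interval -0.97 to -0.62). Gbp2 had 83.6, 88.5, 82.1 and 52.6 CPM (log2FC -0.64, interval -0.76 to -0.53). For Gbp2 the first 3 libraries were close together and OVA-induced Rab44-KO stood below them. Gbp7 was the only type II member that was higher, with 71.1, 82.2, 36.0 and 49.4 CPM (log2FC 0.46, interval 0.31 to 0.60), and it was the one whose lowest level was in OVA-induced WT lungs. Gbp6 had 9.01, 12.8, 17.7 and 13.5 CPM (log2FC -0.39, interval -0.62 to -0.15), but 59.1% of its windows recur in Gbp10 or Gm43302.

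Irf1 had 136, 126, 112 and 70.7 CPM (log2FC in OVA-induced lungs -0.66, interval -0.76 to -0.56). It thus differed from Cxcl9 and Cxcl10 in being no higher in OVA-induced than in normal WT lungs. The type I signalling factors Irf7, Irf9 and Stat2 had log2FC of -0.23, -0.22 and -0.22, and these 3 turned to values from 0.09 to 0.11 on the TPM scale, below the median over all genes on that scale. Usp18, which removes ISG15 and limits IFNAR signalling, had a log2FC of -0.39 (interval -0.61 to -0.18).

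The type I members with larger differences did not share a direction. The OAS family, whose enzymes or relatives sense double-stranded RNA and activate RNase L, was higher in 4 of 5 cases with a median of 0.50 (0.80 on the TPM scale). Oas2 had 104, 106, 122 and 247 counts (log2FC in OVA-induced lungs 1.01, interval 0.69 to 1.33). Oas3 had 39, 39, 151 and 241 counts (log2FC 0.66, interval 0.37 to 0.97). These 2 neighbouring genes were highest in OVA-induced Rab44-KO lungs, whereas Oas1a, of the same cluster on chromosome 5, was highest in OVA-induced WT lungs, with 109, 116, 251 and 145 counts (log2FC -0.80, interval -1.11 to -0.50). Oas1a shares 32.4% of its windows with Oas1g, which bears on its own value. Rsad2 had 105, 182, 143 and 263 counts, and its log2FC of 0.87 (interval 0.57 to 1.17) was the same size as under normal conditions.

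The most abundant type I member was among those lower in OVA-induced Rab44-KO lungs. Bst2 had 103, 109, 119 and 69.8 CPM (log2FC in OVA-induced lungs -0.77, interval -0.87 to -0.67). Zbp1, a sensor of Z-form nucleic acid, had 6.30, 6.14, 11.7 and 7.23 CPM (log2FC -0.69, with an interval wholly below 0). For Zbp1 the normal libraries and OVA-induced Rab44-KO lay close together and OVA-induced WT was high. In the IFIT family, whose proteins bind foreign RNA ends, 3 of 4 genes were lower: Ifit3 and Ifit3b, which share reads, together had 1186 and 848 counts in WT and Rab44-KO (log2FC -0.49, interval -0.62 to -0.37), while Ifit2 had 598 and 798 counts (log2FC 0.41, interval 0.25 to 0.56).

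OVA induction itself gave no common shift of these genes in WT lungs. The log2FC of OVA-induced over normal WT was above 0 for 15 of 31 type I members (median -0.00) and 8 of 15 type II members (median 0.10), against 50.3% of the 19023 genes tested. A total of 4 type I and 3 type II members were over 2-fold higher and none was over 2-fold lower, against 8.99% and 5.20% of all genes. Past 1.5-fold in either direction were 9 type I members (6 higher) and 5 type II members (4 higher), against 28.3% of all genes. The 3 type II members were Cxcl9 (log2FC 4.09, interval 2.95 to 5.60), Cxcl10 (3.71, interval 2.70 to 4.98) and Tgtp1 (1.16, interval 0.72 to 1.61). Tgtp1 shares reads with Tgtp2, and the summed pair was not past 2-fold (0.33, interval 0.14 to 0.52). The 4 type I members were Oas3 (1.94, interval 1.42 to 2.49), Oas1a (1.19, interval 0.86 to 1.53), the DNA-binding HIN-200 gene Ifi204 (1.18, interval 0.84 to 1.52) and Mx1 (1.16, interval 0.69 to 1.65), which encodes a dynamin-like antiviral GTPase.

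In Rab44-KO lungs the same contrast separated the classes. The log2FC of OVA-induced over normal Rab44-KO was below 0 for 14 of 15 type II members, with a median of -0.77 and a range from -1.16 to 0.08, and 13 intervals lay below 0. Of the 19073 genes tested, 50.9% were lower and 26.6% had an interval below 0. Type I members were divided again, with 16 higher and 15 lower and a median of 0.04. The 4 type II members over 2-fold lower, against 3.85% of all genes, were Gbp3 (-1.10, interval -1.27 to -0.93), Gbp4 (-1.16, interval -1.31 to -1.02), Gbp5 (at the threshold, interval -1.22 to -0.79) and Tgtp1 (-1.05, interval -1.56 to -0.57). Only the interval of Gbp4 lay wholly beyond 2-fold. Summed with Tgtp2, the Tgtp1 pair had -0.87 (interval -1.08 to -0.67). Among type I members, Oas3 (2.53, interval 2.04 to 3.06) and Oas2 (1.12, interval 0.79 to 1.47) were over 2-fold higher, against 6.44% of all genes, and Ifit3 (-1.09) and Ifit3b (-1.31) were over 2-fold lower. Past 1.5-fold, 11 of 15 type II members and 6 type I members were lower, against 10.1% of all genes, and 4 type I members were higher, against 12.9%.

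The difference between these responses, Rab44-KO minus WT on the log2 scale, had a median of -0.93 for type II members, -0.25 for type I members and -0.04 for all 18352 genes that could be compared. On the TPM scale, which shifts all genes almost alike, these medians were -0.63, 0.05 and 0.26. The type I median turned, and both classes stayed below all genes, as such a shift must leave them. The difference was below 0 for 14 of 15 type II members, each with a counting interval below 0. Gbp7 was the exception at 0.25 (interval 0.07 to 0.42). For type I members it was below 0 for 19 and above 0 for 12, with 16 intervals below and 6 above 0. Of all genes, 52.5% were below 0, 28.4% had an interval below 0 and 25.2% had an interval above 0. The difference was -4.58 for Cxcl10 (interval -5.87 to -3.28), -4.30 for Cxcl9 (interval -5.94 to -2.66) and -2.21 for Tgtp1 (interval -2.85 to -1.57), the 3 that stood furthest from equality. Outside the 2 chemokines the type II class still had 12 of 13 members lower in Rab44-KO than in WT after OVA induction (median -0.61, a gap of -0.37 to the type I median). The genotype and OVA comparisons share libraries, so they are 4 views of the same 4 measurements and not separate evidence.

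**Figure D3:**
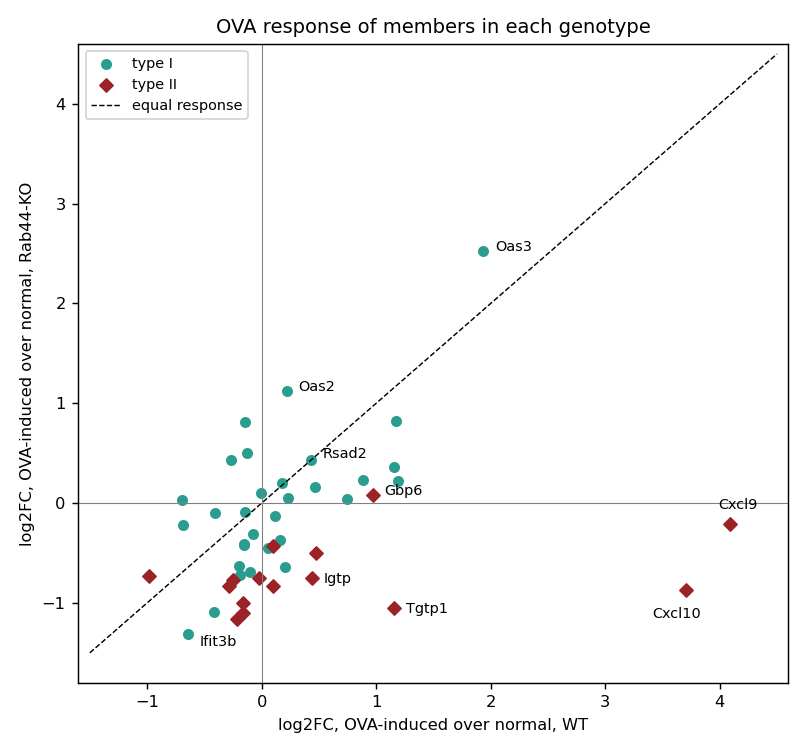
log2FC of OVA-induced over normal in Rab44-KO lungs (vertical) against the same in WT lungs (horizontal) for type I (green circles) and type II (red diamonds) members; the dashed line marks equal responses. Cxcl9 and Cxcl10 lie at 4.09 and 3.71 in WT but at -0.21 and -0.87 in Rab44-KO, and 14 of 15 type II members lie under the line.

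Gene length moved with the genotype difference in OVA-induced lungs across all genes, with a running median of log2FC of -0.42 at 1000 bases, -0.20 at 3000 and 0.36 at 9000, and its part in the members' values was not tested. When members were divided at their median length of 2936.5 bases (lengths recovered from counts and TPM), 16 of 18 shorter type I members were lower (median -0.43) against 3 of 13 longer ones (median 0.24). For type II members, 5 of 5 shorter ones (median -0.64) and 9 of 10 longer ones (median -0.61) were lower. The gap between the class medians was thus -0.21 among shorter and -0.85 among longer members. After a running median of log2FC along length was subtracted, type I members had 16 lower and 15 higher with a median of -0.04, and type II members kept 14 lower and 1 higher with a median of -0.43. The gap between the 2 class medians was -0.40 after this step.

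**Figure D4:**
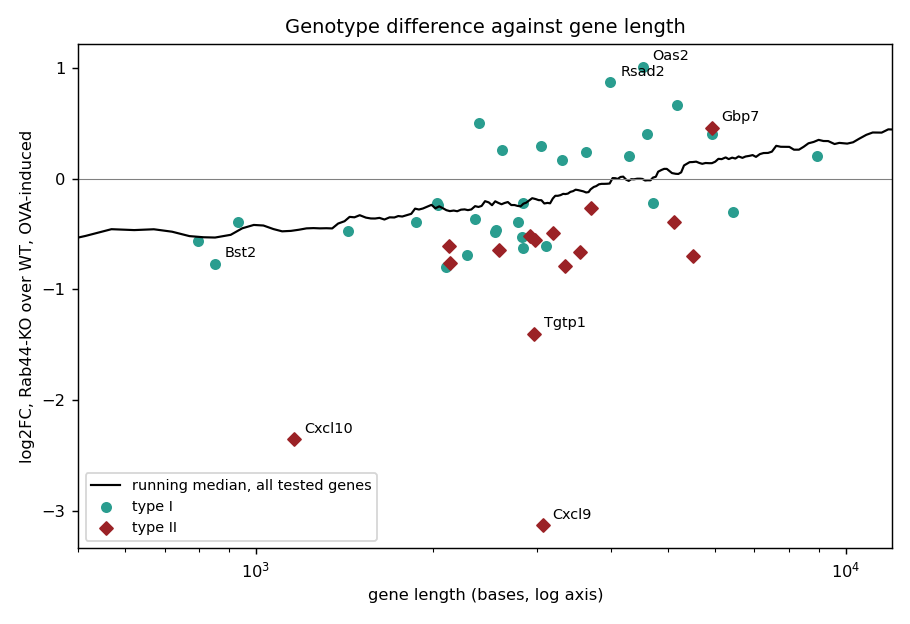
log2FC of Rab44-KO over WT in OVA-induced lungs against gene length in bases (log axis) for type I (green circles) and type II (red diamonds) members, with the running median over all tested genes as a black line. Among type I members, 16 of 18 genes under the members' median length lie below 0 and 3 of 13 longer genes do, whereas 9 of 10 longer type II members lie below 0.

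The interferon genes themselves were near the limit of detection. Of 18 type I interferon genes, 16 had 0 counts in all libraries, and the 18 together had 1, 3, 1 and 2 counts. A count of 0 allows up to 3 counts per library, or 0.154 to 0.164 CPM. The 2 genes with counts were Ifnk (1, 1, 1 and 2) and Ifna15 (0, 2, 0 and 0), and both type III interferon genes were at 0. Ifng, which encodes IFN-γ, had 5, 3, 20 and 1 counts. In OVA-induced lungs its Rab44-KO level was 20.1-fold lower than that of WT as a ratio of CPM with no prior count, with a counting interval from 3.22-fold to 834-fold.

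Several genes around IFN-γ signalling were, like Cxcl9, highest in OVA-induced WT lungs. Socs1, a feedback inhibitor of the JAK kinases, had 57, 47, 134 and 37 counts (log2FC in OVA-induced lungs -1.86, interval -2.43 to -1.33). Cxcr3, the receptor for CXCL9 and CXCL10 on activated T cells and NK cells, had 47, 59, 121 and 51 counts (log2FC -1.25, interval -1.76 to -0.77). Ifngr2, the signalling chain of the IFN-γ receptor, had 1115, 1078, 1434 and 743 counts (log2FC -0.96, interval -1.09 to -0.83). In all 3 the OVA-induced WT library stood above the other 3. Ifngr1, the ligand-binding chain, was not lower, with 4804 and 5247 counts in OVA-induced WT and Rab44-KO lungs (log2FC 0.12, interval 0.06 to 0.17). The type I receptor gene Ifnar1 had a log2FC of -0.30 (interval -0.40 to -0.20).

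**Figure D5:**
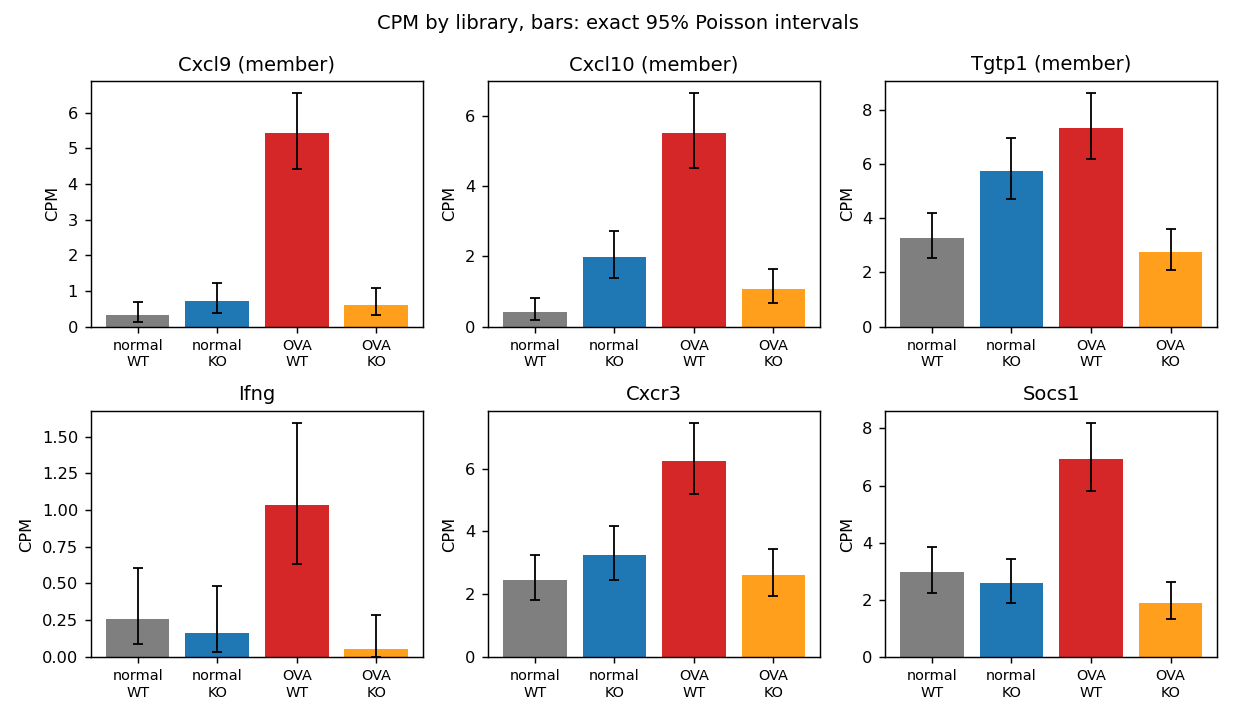
TMM-scaled CPM of the members Cxcl9, Cxcl10 and Tgtp1 and of Ifng, Cxcr3 and Socs1 in the 4 libraries (1 bar per library, vertical lines: exact 95% Poisson intervals for counting error). Each of the 6 genes is highest in OVA-induced WT lungs, but for Tgtp1 this depends on how reads were divided with Tgtp2. Summed, that pair is highest in normal Rab44-KO lungs (28.5 CPM, against 26.1 CPM in OVA-induced WT lungs). Ifng rests on 20 counts in OVA-induced WT lungs and on 1 count in OVA-induced Rab44-KO lungs.

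The other pathway lists are counted by direction, with members of the 46 left out. Of all genes, 51.9% were lower in OVA-induced Rab44-KO lungs and 33.8% had an interval below 0. Of 9 receptor and kinase genes, 5 were lower in OVA-induced Rab44-KO lungs (median -0.12), and on the TPM scale 1 was lower (median 0.21) while 5 lay below the median over all genes. Of 5 inhibitors of the pathway, 3 were lower in Rab44-KO after OVA induction, with Ptpn6 at -0.67 and Pias1 at 0.50. The numbers lower in both of these lists were near the share over all genes. Of 17 sensors, adaptors and interferon regulatory factors, 13 were lower (median -0.33, against 9 lower and a median of -0.0081 on the TPM scale), led by the adaptor Sting1 (-0.80) and the myeloid factors Irf5 (-0.66) and Irf8 (-0.62). All 14 MHC class I and immunoproteasome genes, which IFN-γ also induces, were lower (median -0.77, against 13 lower and a median of -0.45 on the TPM scale), with the proteasome genes Psme2 (-1.17), Psmb9 (-1.10) and Psmb8 (-1.05) furthest from 0. These 14 were all higher in OVA-induced than in normal WT lungs (median 0.50). All 7 MHC class II genes were lower as well (median -1.41), among them H2-Ab1 (-1.57), Cd74 (-1.56) and H2-Eb1 (-1.49). Of 10 testable genes of the CXCR3 axis and of IFN-γ production, 9 were lower (median -0.56, against 7 lower and a median of -0.23 on the TPM scale), including Stat4 (-0.63) and Il18 (-0.52), and Il18r1 was higher (0.32). Of the 10 intervals, 4 lay below 0, 1 lay above and 5 included 0.

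Markers of several leukocytes moved with the type II members in OVA-induced lungs, and their part in the result was not tested. In this comparison 51.9% of all genes were lower and 33.8% had an interval below 0. All 10 T cell markers were lower in Rab44-KO (median -0.93, against 9 lower and a median of -0.60 on the TPM scale), with a summed level of 153 CPM in the WT and 78.5 CPM in the Rab44-KO library. All 10 NK cell markers were lower (median -0.90), with 6 intervals below 0 and 4 that included 0. On the TPM scale 6 were lower (median -0.54), and with the length trend removed 7 were lower (median -0.66). Their summed level was 90.8 and 49.0 CPM, although Ncr1 had 67 and 64 counts. All 10 macrophage and monocyte markers were lower (median -0.91, against 9 lower and a median of -0.58 on the TPM scale, with summed levels of 10618 and 5181 CPM), as were 6 of 8 conventional dendritic cell markers (median -1.13) and 6 of 6 B cell markers (median -0.61, against 5 lower and a median of -0.28 on the TPM scale). No T cell, NK cell or macrophage marker was at 0 in any library. In normal lungs, where type II members were higher in Rab44-KO, the medians of these lists were 0.02 for T cells, -0.26 for NK cells, -0.01 for macrophages and monocytes, 0.19 for conventional dendritic cells (7 of 8 higher) and -0.34 for B cells (6 of 6 lower). Neutrophil markers were higher in normal Rab44-KO lungs in 7 of 7 testable cases (median 0.20), as were 5 of 6 club and ciliated cell markers (median 0.14), against 50.8% of all genes.

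Markers of the other cell types differed in direction in OVA-induced lungs, where 51.9% of all genes were lower in Rab44-KO. Endothelial markers were higher in Rab44-KO in 7 of 8 cases (median 0.66), club and ciliated cell markers in 6 of 6 (median 0.71) and neutrophil markers in 7 of 10 (median 0.45). Plasmacytoid dendritic cells are the main source of type I interferon, and their markers were higher in 5 and lower in 4 of 9 cases (median 0.19), against 7 and 2 on the TPM scale (median 0.50) and 4 and 5 with the length trend removed (median -0.04), and in normal lungs also in 5 and 4 cases (median 0.06). Alveolar epithelial markers were lower in 7 of 8 cases (median -0.54, against 5 lower and a median of -0.22 on the TPM scale), and eosinophil markers in 6 of 7 testable cases (median -1.23), with Epx at 0, 0, 1 and 0 counts.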

How the data were processed

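Whole-lung RNA from WT and Rab44-KO mice, normal and OVA-induced, was sequenced as 150-bp paired-end reads from 1 directional library per group. Per the labels and the study's methods, the authors trimmed and aligned reads to GRCm38 with HISAT2 and deposited raw counts per gene from featureCounts. How strand and multiply matching reads were treated, and the versions of these tools, are not given in the sources used here. The deposited TPM are the authors' counts rescaled by 1 length per gene, and these lengths were recovered from the ratio of the tables (Spearman's rho 0.754 with GENCODE M21 over 18049 genes). Starts in the deposited table match RefSeq GRCm38 for 2.12% of 39405 genes, and positions were therefore taken from GENCODE M21 (GRCm38). DESeq2 is named for the authors' comparisons, which were not used.

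Counts were scaled by TMM (edgeR 4.0.16, R 4.3.3; factors 0.973 to 1.02). The log2FC carries a prior count of 0.125, and a gene entered a comparison when the higher of the 2 libraries held 10 counts or more. With 1 library per group no test of a condition was run. Ratios have exact Clopper-Pearson intervals, CPM have exact Poisson intervals, and differences of responses have a normal approximation, all for counting error only. A 0 count was given a floor of 3 counts per library. Python 3.11.15, numpy 2.4.6, pandas 2.3.3, scipy 1.17.1, matplotlib 3.10.9 and DESeq2 1.42.0 (size factors) were used, and the steps were tested on simulated counts.

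Members and lists were chosen with earlier results of these data known. Genes named with values are the 5 members per class with the largest difference in OVA-induced lungs, the 3 per class in normal lungs and in the WT response, the 3 per class with the highest TPM, all with at least 100 counts, and the 3 leading genes of each pathway list. Other members with values (Gbp6, Gbp7, Irf1, Ifi47, Ifit2, Ifit3, Usp18, Mx1 and the like) illustrate a family or an exception and were picked after their values were seen, as were the marker genes printed. Alternatives were DESeq2 size factors, total counts, TMM on 2 libraries, TMM with immunoglobulin genes removed, TPM with a pseudocount of 0.1, a prior count of 2, count minimums of 1 and 50, removal of the length trend over windows of 500 genes, thinning, and members left out. A gene of the receptor and kinase list is not reported here and was left out of its counts.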

Additional observations from a re-analysis of the deposited data

Results flagged for a closer look

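For 6 members, OVA-induced minus normal had opposite signs in Rab44-KO and WT lungs, and the counting interval excluded 0 in both genotypes. These are 13.0% of the members, and 14.6% of 18352 genes met the same criterion, so the count is near the background. The difference of the responses, Rab44-KO minus WT on the log2 scale, was -4.58 for Cxcl10, -2.21 for Tgtp1, -1.19 for Igtp, -0.98 for Ifi47, -0.85 for Bst2 and 0.71 for Cmpk2. The first 5 were higher with OVA in WT and lower with OVA in Rab44-KO lungs, and Cmpk2 was the reverse. Igtp had log2FC of 0.44 in WT and -0.75 in Rab44-KO, Ifi47 had 0.48 and -0.50, Bst2 had 0.20 and -0.64, and Cmpk2 had -0.27 and 0.44. Tgtp1 summed with Tgtp2, with which it shares reads, had 0.33 and -0.87. With 1 library per group these differences were not tested, and their spread between mice is unknown.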

How the results depend on the processing

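No paired analysis was run because each group has 1 library, and for the same reason no library could be left out. Over 280 summary values under the alternatives, 252 stayed near the reported value, 27 moved and 1 reversed (a median moved when it shifted by more than the median counting error of its members, and reversed when it was beyond that error and changed sign; a count stayed when within 1.5 times), and of 464 values of single members 412 stayed, 43 moved and 9 reversed. The gap between the class medians in OVA-induced lungs ran from -0.42 to -0.37 (without Cxcl9 and Cxcl10), but was -0.21 among shorter and -0.85 among longer members. Size factors, total counts, the TMM variants and TPM shift all genes alike or almost so, and cannot move such a gap. Gaps that stayed under these settings, counted among the 252, were therefore fixed in advance. With TPM the median over all genes shifts by 0.32 in OVA-induced Rab44-KO over WT. It shifts by -0.17 and 0.12 in the WT and Rab44-KO responses and by 0.03 in normal lungs. In OVA-induced Rab44-KO over WT, the type I median turned to 0.092 and the type II median was -0.31. Relative to all genes these were -0.20 and -0.61, with 19 of 31 and 14 of 15 members below them. These counts equal those with TMM because TPM shifts all genes almost alike. TPM also turned Irf7 to 0.092, Irf9 to 0.10, Stat2 to 0.11, Xaf1 to 0.022 and Irgm2 to 0.062, gave a type II median of -0.078 in the WT response, and moved the median response differences to 0.047 (type I) and -0.63 (type II). Removing the length trend gave a type II median of -0.43 and turned Irf7 to 0.024, Irf9 to 0.021, Ifi27l2a to 0.094 and Parp14 to -0.14. Counts past a fold take both directions here, are small and moved easily. In normal lungs the 2 type II members became 1 with TPM, a prior count of 2, both-type members left out or intervals wholly beyond 2-fold, and 0 at a minimum of 50, and 1 type I member passed 1.5-fold. In OVA-induced Rab44-KO over WT, the 1 type I member became 0 when TMM left out immunoglobulin genes, with a prior count of 2 or with intervals beyond 2-fold, 2 with TPM and 8 at 1.5-fold, and 9 type II members passed 1.5-fold, with 3 of the 8 higher and all 9 lower. In the WT response, the 4 type I members became 2 with TPM, 1 with intervals beyond 2-fold and 9 at 1.5-fold (6 higher), and 5 type II members passed 1.5-fold. In the Rab44-KO response, the 4 type I members became 2 with near-identical genes left out or intervals beyond 2-fold and 10 at 1.5-fold (4 higher), and the 4 type II members became 1 with TPM or intervals beyond 2-fold and 11 at 1.5-fold. The cause of these moves was not tested. Ifng and the normal levels of Cxcl9 and Cxcl10 are limited by depth.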
